A study of Mus musculus with 8 samples.

Results

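Methylation was described at the genes Prm1, Prm2, Tnp1, Tnp2, Acrv1, Brdt, Dpep3, Slc25a31, Tex101 and Ldhc, which are used in spermatocytes and spermatids. The samples were cell fractions sorted for spermatogonia, which precede those stages. These 10 genes, of 26178 in the annotation, came from a list chosen with earlier results of these data known. Every cytosine from 2 kb upstream of the start site to the gene end was kept. The table held 223 such cytosines, of 2130064 in all, in 8 of the 10 genes. All 223 were followed by a G in the reference and none lay in another gene. Fractions enriched for type A spermatogonia were isolated at postnatal day 6 (PD6) from F1 males of the C3H/HeN strain. Magnetic sorting used an antibody to CD49f (Itga6), a surface protein of these spermatogonia. Sodium arsenite at 85 ppm was given in the tap water of the dams of the arsenic group on gestational days (GD) 8 to 18, and the control dams drank tap water alone. Each group had 4 samples, for each of which 8 testes of 4 mice were pooled. DNA was read by reduced representation bisulfite sequencing (RRBS), which cuts at CCGG with the enzyme MspI, so that only sequence near such sites is read.

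Spermatogonia divide by mitosis, spermatocytes carry out meiosis, and the haploid spermatids then reshape their nucleus and build the acrosome and flagellum. In spermatids the histones give way to transition proteins and then to protamines, which pack the sperm DNA. The listed genes are transcribed late in this series of stages, and the promoters of several germ-line genes are known to carry dense methylation in somatic tissues. Methylation of cytosine in CpG near a start site is usually found at silent promoters, whereas gene bodies are methylated in most expressed and silent genes alike.

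The level of a cytosine was the percentage of its reads that stayed C after bisulfite treatment, and the level of a promoter (−1 kb to +100 b of the start site) or gene body (the rest of the gene) was the mean over its cytosines. Positions count from the start site as 0. Of the 223 cytosines, 95 lay in promoters, 128 in gene bodies and 0 between −2 kb and −1 kb. Slc25a31 had 41 in its promoter and 26 in its body, Tex101 27 and 12, Brdt 7 and 44, Tnp1 9 and 3, Tnp2 7 and 2, Prm1 1 and 9, and Dpep3 3 and 4. Ldhc had 28 in its body and 0 in its promoter. Prm2 and Acrv1 had 0 in either part. The promoter windows of Prm2, Acrv1 and Ldhc hold 0 CCGG sites in the reference. Parts with at least 3 cytosines were tested, which left 6 promoters and 7 gene bodies.

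The stretches below carry the results. They come from the GRCm38 (mm10) reference on the strand of the gene, and a CpG with reads in every sample is in capitals. The promoters of Slc25a31 (chr3:40708621-40708870, plus strand, −250 to −1) and Tex101 (chr7:24672051-24672300, minus strand, −250 to −1) show the dense and strongly methylated CpGs. The start of Tnp2 (chr16:10788654-10788775, minus strand, −120 to +1) and coding sequence of Prm1 (chr16:10796643-10796723, minus strand, +100 to +180) show the sparse promoter and the exon with the lowest levels. The intron of Brdt (chr5:107331654-107331774, plus strand, +460 to +580) holds the only DMC, and the coding sequence of Dpep3 (chr8:105979129-105979209, minus strand, +210 to +290) the largest difference of a gene body.
Slc25a31: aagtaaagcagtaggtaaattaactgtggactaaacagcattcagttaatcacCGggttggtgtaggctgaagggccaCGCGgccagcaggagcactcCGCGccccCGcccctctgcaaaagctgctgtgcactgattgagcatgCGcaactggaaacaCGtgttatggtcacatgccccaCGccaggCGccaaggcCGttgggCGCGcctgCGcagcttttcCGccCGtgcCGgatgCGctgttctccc
Tex101: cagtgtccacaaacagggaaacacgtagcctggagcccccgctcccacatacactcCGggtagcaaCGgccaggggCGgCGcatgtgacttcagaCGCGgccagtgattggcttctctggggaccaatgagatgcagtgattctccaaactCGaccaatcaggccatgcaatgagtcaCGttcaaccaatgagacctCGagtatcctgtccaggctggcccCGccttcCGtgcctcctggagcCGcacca
Tnp2: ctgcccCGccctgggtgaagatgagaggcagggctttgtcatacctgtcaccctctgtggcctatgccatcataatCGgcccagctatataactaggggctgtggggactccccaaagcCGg
Prm1: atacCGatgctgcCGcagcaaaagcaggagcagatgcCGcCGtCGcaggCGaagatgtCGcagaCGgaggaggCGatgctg
Brdt: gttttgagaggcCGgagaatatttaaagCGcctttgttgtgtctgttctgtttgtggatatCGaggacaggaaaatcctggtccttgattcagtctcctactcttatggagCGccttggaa
Dpep3: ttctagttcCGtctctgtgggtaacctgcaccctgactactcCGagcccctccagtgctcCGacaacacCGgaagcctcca

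The stretch of Slc25a31 has 18 CpGs, all 18 of them read, and that of Tex101 has 14, of which 12 were read. In Tnp2 3 CpGs of 3, in Prm1 9 of 9, in Brdt 4 of 4 and in Dpep3 4 of 4 were read. Promoter windows of RefSeq (GRCm38, 250 bases before to 50 after the start) were searched on both strands for motifs. All 10 genes matched. TGACGTCA, the site bound by the spermatid factor CREM, was in 0 of 10 members and in 1.79% of the 32851 windows. Its shorter form TGACG, which the longer motif contains, was in 2 members, Dpep3 and Ldhc, and in 20.8% of all windows. TATAAA was in 1 member, Prm2, and in 13.6% of all windows. No match says only that these letters are not in the window.

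Across the whole table the samples held 96428439 to 121351202 reads on CpGs in the control group and 97433083 to 133406260 in the arsenic group. At the 223 cytosines they held 10142 to 12866 and 10336 to 15790 reads, with a median of 29 to 40 and 30 to 44 reads per cytosine. A level is an average over all cells of a pool, so that a different share of another cell type and a different level in one type cannot be told apart. Promoters of germ-line genes that are methylated in somatic cells and unmethylated in germ cells were read for 11 of 15 genes, and 8 of them were above 80%. Their mean lay between 79.0 and 83.1% in control samples and between 78.7 and 81.9% in arsenic samples. Dazl was at 94.9% and Ddx4, an RNA helicase of germ cells, at 80.2%. Promoters of 9 of 15 maternally imprinted genes, which male germ cells have unmethylated, had a mean of 55.4 to 64.8% and 52.8 to 62.7%. Neither list was at the low level known of pure male germ cells. Promoters of spermatogonial genes were at a median of 1.73%, with 13 of 14 below 20%, as were 81.7% of all promoters. The part of other cells in the levels below was not tested.

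Late spermatogenic promoters of this list, which was chosen with earlier results of these data known, were mostly methylated. Of the 6 promoters, 5 were above 80% and their median was 86.0%, beside a median of 1.80% over all 11972 promoters with at least 3 cytosines, of which 5.35% were above 80%. Dpep3 was highest at 91.1%, followed by Slc25a31 at 87.2%, Tnp1 at 86.4%, Tex101 at 85.6% and Brdt at 82.7%. Tnp2 was lowest of the 6 at 64.4%. The windows were read in different places. Slc25a31 had 35 cytosines from −296 to −11, and Tex101 had 23 from −194 to −6. Tnp1 had 1 upstream of its start, at −1, with 2 in the 5′UTR and 6 in the coding exon. Brdt was read only from −871 to −525 and Dpep3 only from −999 to −504, so their levels close to the start were not measured. The 5 upper promoters followed each other at distances within the spread between samples. Slc25a31 exceeded Tnp1 in 4 of 8 samples, Tnp1 exceeded Tex101 in 4 of 8 and Tex101 exceeded Brdt in 4 of 8. Dpep3 exceeded Slc25a31 in 7 of 8 samples, by 3.93 ± 4.99 points (SD, n = 8). Brdt exceeded Tnp2 in 8 of 8 samples, by 18.3 ± 6.21 points (SD, n = 8).

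**Figure D1:**
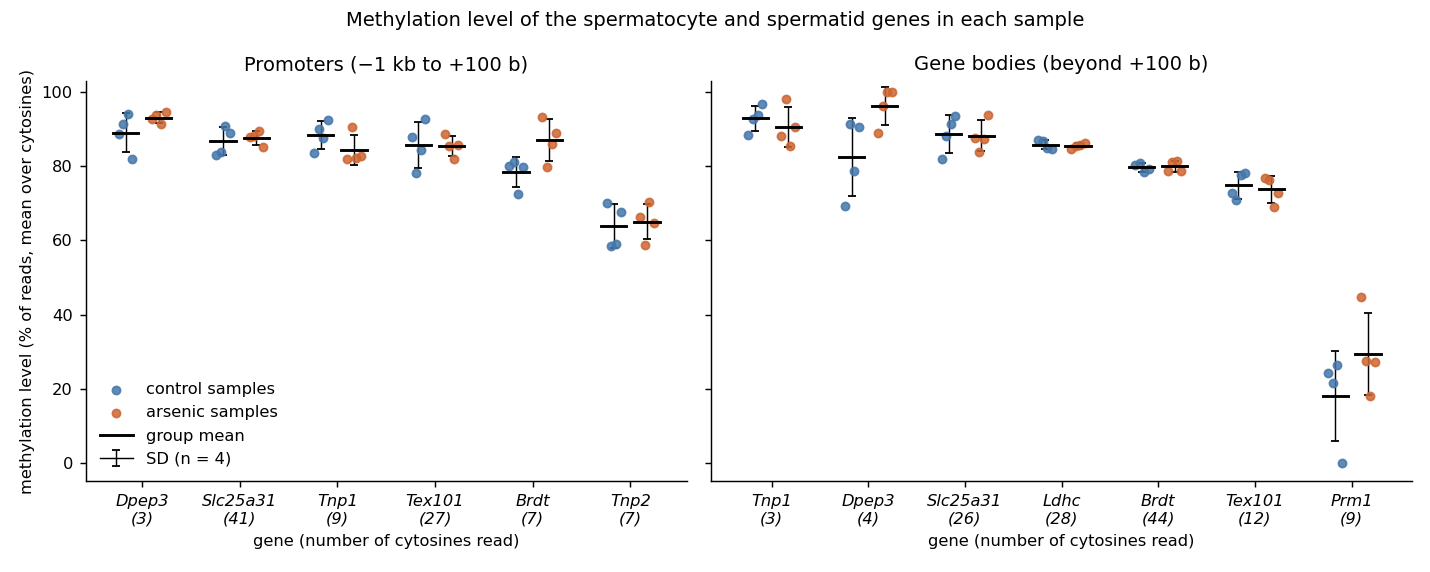
Methylation level of each promoter (left) and gene body (right) with at least 3 cytosines, in percent of reads averaged over cytosines, for 4 control and 4 arsenic samples. Points are samples, thick bars are group means and thin bars the SD. Most genes lie between 69.0 and 100% in both groups, Tnp2 near 64.4% and Prm1 at 23.7%, and the groups overlap for every gene.

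CpG density differs among these promoters. Slc25a31 is CpG-rich, with an observed over expected CpG ratio of 0.659, Brdt (0.526), Tex101 (0.438) and Dpep3 (0.356) are intermediate, and Tnp1 (0.223) and Tnp2 (0.152) are CpG-poor. Here CpG-rich means a ratio of at least 0.6 and CpG-poor one below 0.35. Of all 5709 CpG-rich promoters read, 28 (0.490%) were above 80%, and Slc25a31 was one of them, at the percentile 99.8 of its class. Others were Dazl (94.9%), Fkbp6 (91.0%) and Ddx4 (80.2%), of the germ-line genes that are methylated in somatic cells. Mael (78.7%) and Tex14 (56.5%), the other CpG-rich promoters read in that list, were lower. Among the 4261 intermediate promoters 3.68% were above 80%. Dpep3, Tex101 and Brdt stood at the percentiles 99.4, 97.8 and 97.1 of these. Of the 2002 CpG-poor promoters 22.7% were above 80% and their median was 46.0%. Tnp1 was at the percentile 87.8 and Tnp2 at 61.2 of that class.

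**Figure D2:**
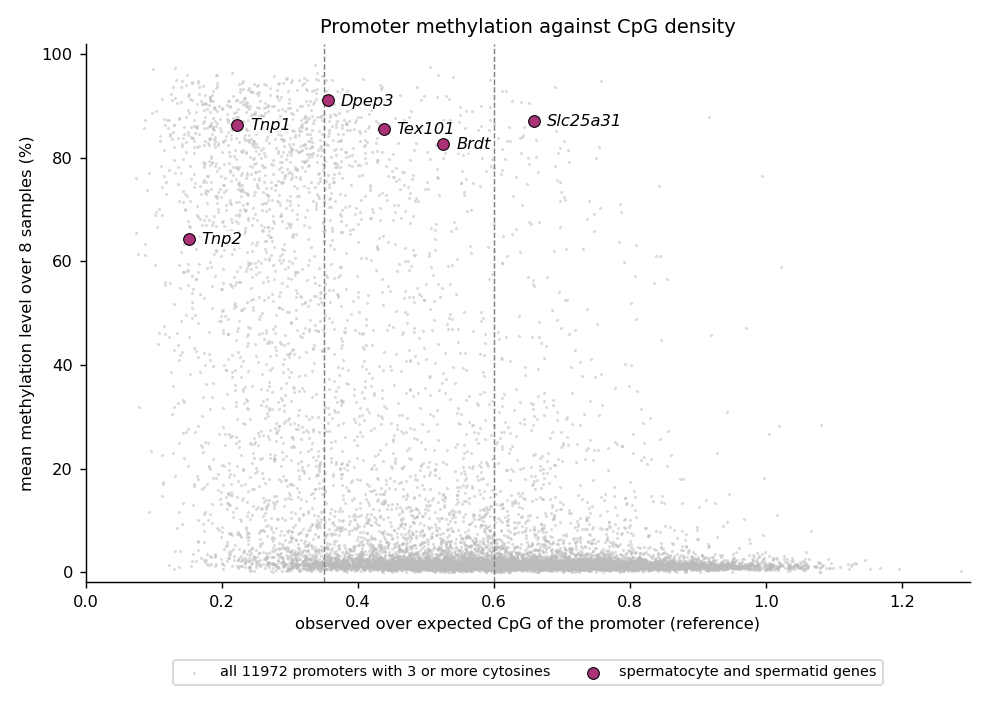
Mean level over 8 samples (percent) of all 11972 promoters with at least 3 cytosines (grey) against the observed over expected CpG ratio of the reference, with the 6 members marked and dashed lines at the ratios 0.35 and 0.6. Slc25a31, at a ratio of 0.659 and 87.2%, lies far above the dense band of CpG-rich promoters, whose median is 1.38%.

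Most promoters of other late genes that were read did not share this level. In a list of 59 other genes of spermatids and late spermatocytes, 17 promoters were read, with a median of 2.05%, and 15 of them were below 20%. The highest were Izumo1, the sperm protein that binds the egg, at 88.5%, Adam2, a sperm surface protein, at 21.2%, and Tcp11 at 13.1%. Izumo1, with a ratio of 0.304, was the only CpG-poor promoter read in this list. CpG-poor members such as Tnp1 and Tnp2 thus had little to be compared with. The lowest were Catsper2, a subunit of the sperm calcium channel, at 1.04%, Spag6, a protein of the flagellar axoneme, at 1.23%, and Spata18 at 1.32%. Among 11 of 23 meiotic genes read, the median was 55.9%. Of these, 4 were above 80%, among them the synaptonemal complex genes Sycp1 (85.5%) and Sycp2 (80.02%), and 4 were below 20%, among them Stag3, a meiotic cohesin subunit (1.17%), and Prdm9, which marks recombination sites (0.946%). Sycp1 and Hormad1 (80.9%) are also in the list above of germ-line genes methylated in somatic cells, so the 2 lists are not separate. CpG-rich promoters were 9 of the 17, 4 of the 11 and 1 of the 6 members.

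The gene bodies had a median of 85.7%, beside 55.2% over all 19047 bodies with at least 3 cytosines. Tnp1 was at 91.8%, Dpep3 at 89.4%, Slc25a31 at 88.5%, Ldhc at 85.7%, Brdt at 79.8%, Tex101 at 74.3% and Prm1 at 23.7%. Ldhc exceeded Brdt, Brdt exceeded Tex101 and Tex101 exceeded Prm1 in 8 of 8 samples, by 5.84, 5.54 and 50.6 points. The order of Tnp1, Dpep3, Slc25a31 and Ldhc held in 5 to 6 of 8 samples for each pair of neighbours. In the list of 59 late genes, 53 bodies were read, with a median of 76.0%.

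Whether gestational arsenic exposure was followed by other levels at these genes was asked with 3 tests, of single cytosines, of group means over the samples and of read ratios over all genes. A differentially methylated cytosine (DMC) had a q of at most 0.01 in the likelihood-ratio test on reads summed over each group and a difference of at least 10 points. In the gene paragraphs below, differences of single cytosines are of group means unless summed reads are named. A q with no other test named is of this test on summed reads. Of the 223 cytosines 1 (0.448%) was a DMC, a hyperDMC in Brdt, and 0 were hypoDMCs. The unadjusted p of this test was under 0.05 at 42 cytosines (18.8%), beside 17.8% of all cytosines. Of all cytosines 0.552% were DMCs and 0.228% were hyperDMCs, so the share in these genes was near the background. At 5 cytosines (2.24%) every sample of one group lay on one side of the other group, as at 2.1% of all cytosines. The mean was lower in the arsenic group at 112 cytosines and higher at 111. When limma compared the log2 ratios of methylated to unmethylated reads at every cytosine, 0 of the 223 and 0% of all cytosines reached an adjusted p of 0.05 or less, the lowest in these genes being 0.972. Its unadjusted p was under 0.05 at 12 of them (5.38%), beside 5.11% of all cytosines.

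Group means gave no call either. In the arsenic group 2 of 6 promoters and 4 of 7 gene bodies were lower, where 52.3% of all promoters and 61.4% of all bodies were. The groups overlapped in all 6 promoters and in all 7 bodies. Over the genome they did not overlap in 2.97% of promoters and in 3.9% of bodies, and such regions have p = 0.0286, the smallest p that the two-sided exact permutation test allows with 4 samples in each group. Limma on the read ratios of whole regions called 0 of the 6 promoters and 0 of the 7 bodies at the same adjusted level, and 0% of all promoters and 0% of all bodies. At an unadjusted p under 0.05 it counted 1 member promoter (Brdt) and 1 member body (Dpep3), beside 5.44% of all promoters and 5.73% of all bodies. In the list of 59 late genes 8 promoters were lower and 9 higher in the arsenic group, and 34 bodies were lower and 19 higher. Limma called 0 of them, and its unadjusted p was under 0.05 in 2 promoters and 2 bodies.

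**Figure D3:**
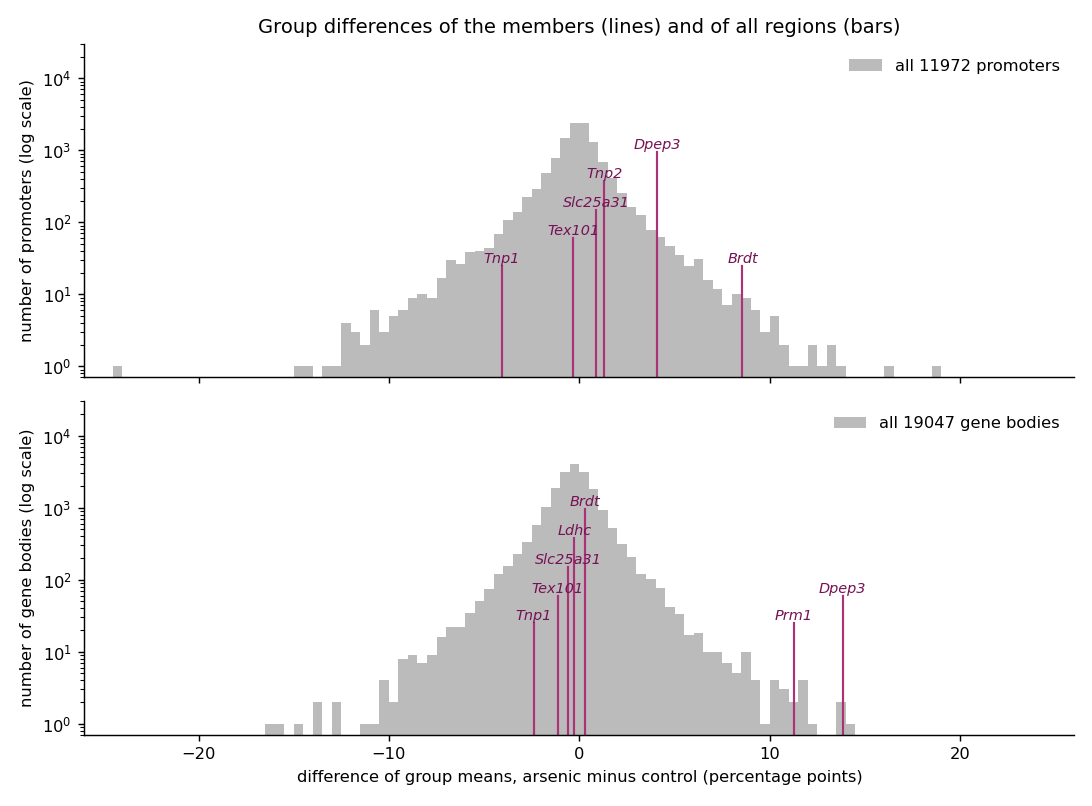
Differences of group means, arsenic minus control, in percentage points, for all 11972 promoters (top) and 19047 gene bodies (bottom) as bars on a log scale, with lines for the members. Brdt (8.56 points) in the promoters and Prm1 (11.2) and Dpep3 (13.8) in the bodies lie in the outer part of the bars, and the other members within 5 points of 0.

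Among the sperm chromatin proteins, the transition protein gene Tnp1 (promoter chr1:73015799-73016899, minus strand) was methylated from the start site into its coding exon. Of the 9 cytosines in its promoter window, only 1 lay upstream, at −1, while 2 lay in the 5′UTR and 6 in the coding exon. The promoter level is thus mostly one of transcribed sequence. Its promoter was at 83.6, 90.1, 87.6 and 92.4% in control samples 1 to 4 and at 81.9, 90.5, 82.2 and 82.9% in arsenic samples 1 to 4. Arsenic samples 1, 3 and 4 were below every control sample, and arsenic sample 2 was above 3 of the 4. The group means were 88.4% ± 3.77 and 84.4% ± 4.11 (SD, n = 4), and differed by −4.06 points (two-sided exact permutation p = 0.2). The body, with 3 cytosines of the same exon, differed by −2.41 points (exact permutation p = 0.457). The cytosine with the largest difference lay at +41 in the coding exon (position 73015858), with 87.7% ± 6.28 in the control group, 74.8% ± 12.0 in the arsenic group (SD, n = 4) and a q of 0.149. The other strand of the same CpG, at +40, differed by −2.39 points.

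Tnp2 (promoter chr16:10788555-10789655, minus strand), the other transition protein gene, was the least methylated of the promoters with at least 3 cytosines and varied along its length. From −370 to −44 the 5 cytosines were between 55.1 and 84.5%, at −1 the level was 53.1%, at +39 in the 5′UTR 32.2%, and at +109 and +111 in the coding exon 40.5 and 52.0%. The promoter was at 70.02, 58.4, 58.9 and 67.6% in control samples 1 to 4 and at 66.3, 58.8, 70.4 and 64.8% in arsenic samples 1 to 4. These values are mixed, and the means of 63.8% ± 5.94 and 65.1% ± 4.78 (SD, n = 4) differed by 1.32 points (exact permutation p = 0.8). The largest difference was at +39 (position 10788616), 8.20 points, or 5.03 points in summed reads, with a q of 0.745. There the samples spread from 15 to 43.8% in the control group and from 25 to 53.3% in the arsenic group. Reads at these cytosines numbered 11 to 48.

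Prm1, which encodes protamine 1, is a neighbour of Tnp2 on chromosome 16, with start sites 8168 bases apart, and its promoter and body were the only parts of a member below 40%. All 10 cytosines read lie from +76 to +173 on one strand, at 13 to 44 reads, so close that 1 read can span several. Levels over the 9 coding cytosines (body chr16:10796332-10796722, minus strand) were 24.2, 21.5, 26.4 and 0% in control samples 1 to 4 and 44.6, 27.4, 18.1 and 27.1% in arsenic samples 1 to 4. Control sample 4 had no methylated read at any of the 10 cytosines, and arsenic sample 1 stood above the rest. A count of 0 in 14 reads allows a level of up to 21.4%, which covers counting error only, and up to 42.9% if each fragment had been counted 2 times. The means of 18.04% ± 12.2 and 29.3% ± 11.1 (SD, n = 4) differed by 11.2 points (exact permutation p = 0.286), and by 5.23 points without control sample 4. At the single 5′UTR cytosine at +76 the means were 28.2% ± 21.0 and 26.3% ± 11.9 (SD, n = 4). The largest difference, at +137 (position 10796686), was 15.7 points, or 10.2 points in summed reads, with a q of 0.362. It included 68.0% in arsenic sample 1 (95% Wilson interval 48.4 to 82.8%, 25 reads). In 76.4% of the values in the body of Prm1 the methylated and the unmethylated reads were both even in number, beside 40.8% over all cytosines.

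**Figure D4:**
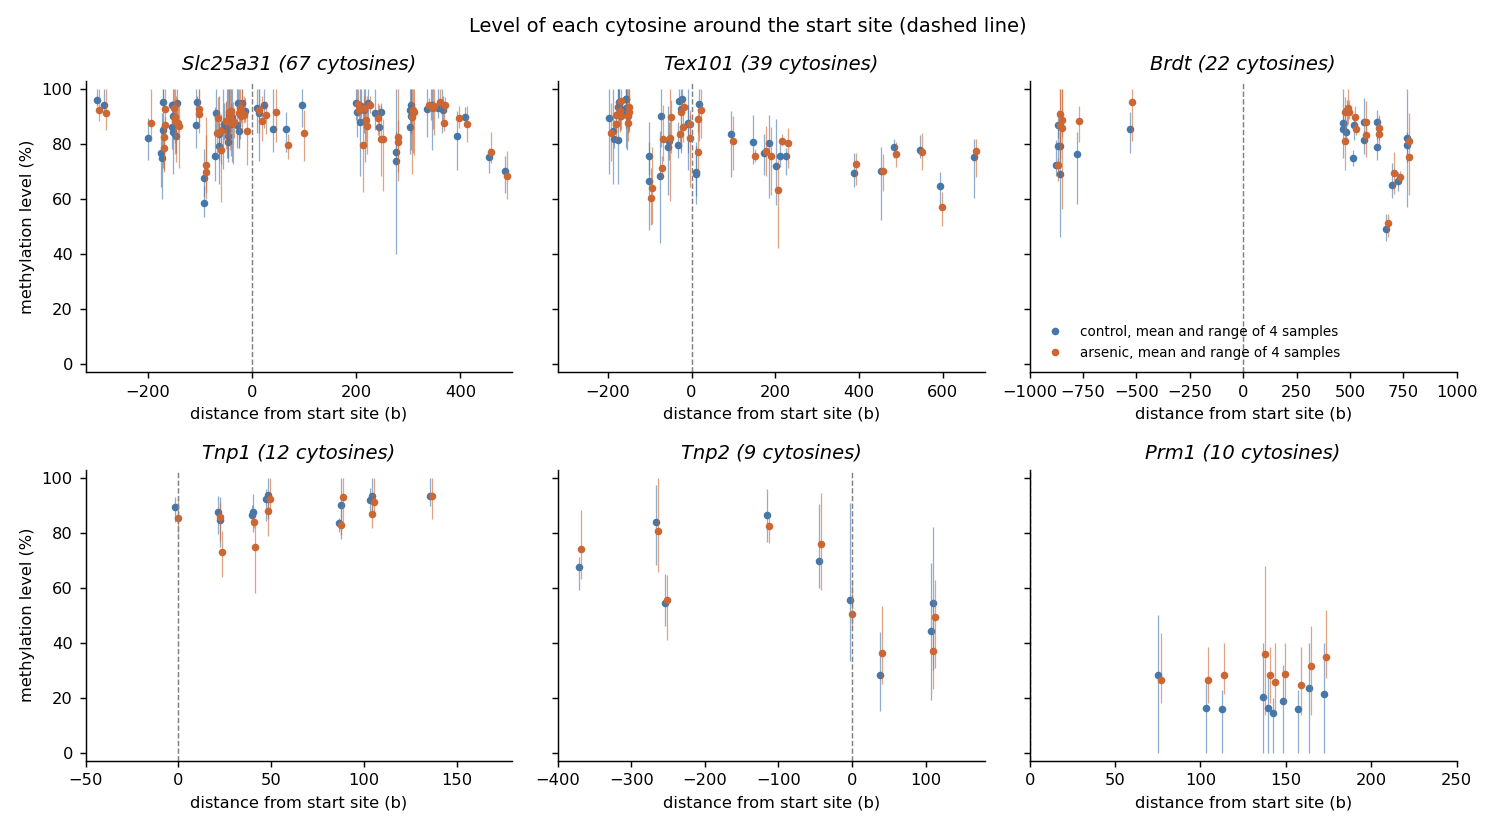
Level (percent) of each cytosine against the distance from the start site in bases, for 6 genes (Brdt within 1 kb), with the mean (points) and range (lines) of 4 control and 4 arsenic samples. Slc25a31 and Tex101 stay high across the start site, Tnp2 is at 84.5% at −114 and at 32.2% at +39, and Prm1 lies near 23.7% with wide ranges.

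Brdt encodes a bromodomain protein of the testis that binds acetylated histones in meiotic and haploid cells. Its promoter (chr5:107330194-107331294, plus strand) was read at 7 cytosines from −871 to −525, at 12 to 32 reads. Levels were 80.2, 81.3, 72.5 and 79.9% in control samples 1 to 4 and 93.3, 79.7, 86.0 and 89.0% in arsenic samples 1 to 4. Arsenic samples 1, 3 and 4 lay above every control sample, and arsenic sample 2 lay below 3 of them. The means of 78.5% ± 4.02 and 87.0% ± 5.70 (SD, n = 4) differed by 8.56 points (exact permutation p = 0.114), the largest difference of the member promoters in this window. In a window from 500 b before to 500 b after the start, which holds other cytosines, Brdt differed by 1.92 points. Limma gave an adjusted p of 0.908 (unadjusted 0.0450). The cytosine at −854 (position 107330340) had the largest difference in the gene, 19.8 points with a q of 0.0893, at 69.1% ± 17.0 and 88.9% ± 7.62 (SD, n = 4).

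The DMC lies at chr5:107331715 on the plus strand, +521 in the first intron of Brdt, at 68 to 200 reads. Its level was 75.3, 72.1, 77.8 and 74.0% in control samples 1 to 4 and 92.5, 94.0, 86.7 and 87.0% in arsenic samples 1 to 4. Every arsenic sample lay above every control sample. The means of 74.8% ± 2.40 and 90.1% ± 3.77 (SD, n = 4) differed by 15.3 points, and the levels of the summed reads by 14.4 points with a q of 6.26e-06. This test takes each read as independent. With the spread between samples included, the q was 0.893 with overdispersion scaling and 0.972 with limma.

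The opposite strand of that CpG did not share the difference. At +522 the means were 87.1% ± 3.73 and 85.7% ± 2.21 (SD, n = 4), which differ by −1.43 points, and both strands summed differed by 5.73 points with a q of 0.0159. In this stretch, chosen after its values were seen, all 5 plus-strand cytosines from +472 to +630 were higher in the arsenic group, by 3.98, 8.58, 15.3, 6.65 and 4.63 points. All 5 minus-strand cytosines beside them were lower, with differences of −4.22, −0.65, −1.43, −4.67 and −2.07 points. Neighbours on one strand lie so close that 1 read can span several, so they are not separate observations. The cytosine at +488 had a q of 0.00908 but differed by 8.10 points in summed reads. On the plus strand reads numbered 35 to 100 at +472 and 65 to 190 at +488, 16 bases further. With all counts halved, which weakens this test at every cytosine, the q of the DMC was 0.0909. Its read counts were not all even. Whether fragments were counted more than once was not tested.

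**Figure D5:**
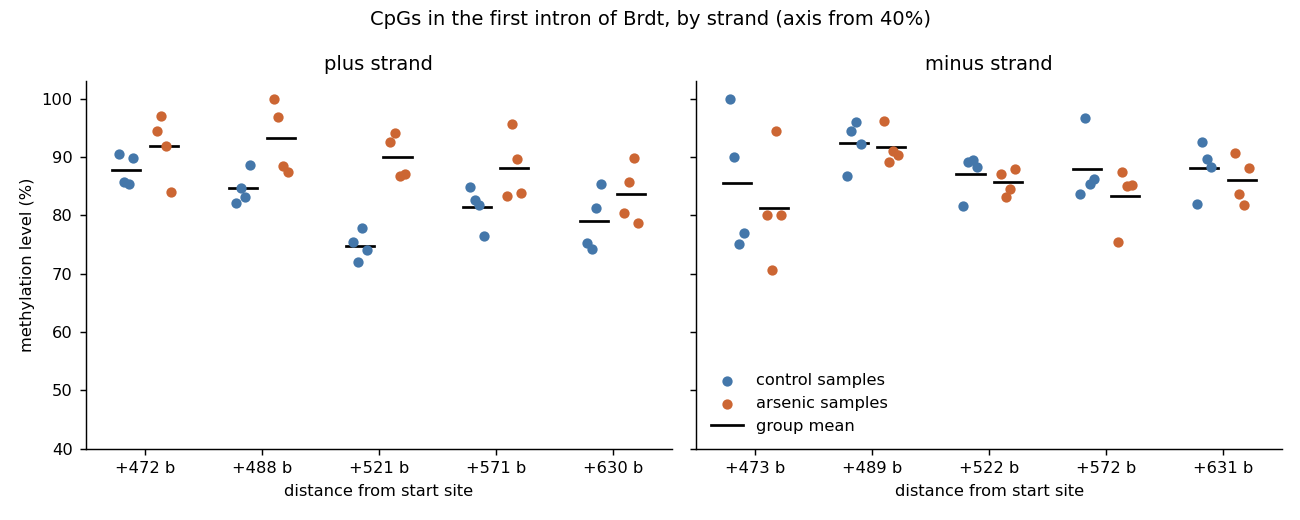
Level (percent, axis from 40) at 5 CpGs of the first intron of Brdt on the plus strand (left) and on the minus strand (right), by distance from the start site, with points for samples and bars for group means. At +521 the 4 arsenic samples lie above the 4 control samples, while at +522, the other strand of that CpG, the groups mix.

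The Brdt body as a whole differed little between the groups. Over all 44 cytosines, the DMC included, (chr5:107331295-107387058) the samples ran from 78.3 to 80.9% in control and from 78.7 to 81.4% in arsenic, and the means of 79.7% ± 1.15 and 79.99% ± 1.40 (SD, n = 4) differed by 0.278 points (exact permutation p = 0.629). Its 37 intronic cytosines had a mean of 83.3% and 7 in a coding exon 61.6%, and single cytosines ranged from 36.5 to 97.3%. Single CpGs differed in both directions, as at position 107342760, where both strands differed by −9.55 and −9.36 points, and at 107377993, where the plus strand differed by 9.46 and the minus strand by −3.49 points.

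Slc25a31 encodes the ADP/ATP carrier of mitochondria in male germ cells, which stands in for the X-linked carrier in meiosis. Its promoter (chr3:40707871-40708971, plus strand) had the most cytosines of the member promoters, and 35 of the 41 lay upstream of the start site. Levels were 83.1, 83.9, 90.8 and 89.1% in control samples 1 to 4 and 87.8, 88.1, 89.5 and 85.1% in arsenic samples 1 to 4. The arsenic samples lay within the range of the control samples. The means of 86.7% ± 3.80 and 87.6% ± 1.82 (SD, n = 4) differed by 0.897 points (exact permutation p = 0.743). The body (chr3:40708972-40726094) was at 88.8% ± 5.08 and 88.2% ± 4.21 (SD, n = 4), and differed by −0.579 points (exact permutation p = 0.857).

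Single cytosines of Slc25a31 ran from 64.3 to 94.7%. The lowest, at −91 (position 40708780), was also the one with the largest difference. It was at 53.7, 53.6, 64.7 and 62.5% in control samples 1 to 4 and at 90, 67.4, 60 and 62.5% in arsenic samples 1 to 4. The difference of 11.4 points, with a q of 0.232, came with a wide spread, as only arsenic samples 1 and 2 were above the control samples. As in the Brdt intron, all plus-strand cytosines at CpGs read on both strands from 40708699 to 40708848 were higher in the arsenic group. This stretch was chosen after its values were seen. The plus-strand differences ran from 0.701 to 11.4 points, while those of the minus strand went both ways, from −8.72 to 7.55 points. The groups did not overlap at −169, with 95.5% ± 3.14 for control and 86.8% ± 1.99 for arsenic (SD, n = 4; q = 0.182), nor at +250, with 91.9% ± 2.35 and 81.9% ± 12.7 (SD, n = 4; q = 0.175).

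Ldhc encodes the lactate dehydrogenase of male germ cells. Its body (chr7:46861364-46878147, plus strand) was the steadiest, as the 8 samples lay within 2.45 points of each other. The levels were 87.1, 86.7, 84.9 and 84.6% in control samples 1 to 4 and 84.7, 85.5, 85.7 and 86.3% in arsenic samples 1 to 4, a difference of −0.259 points (exact permutation p = 0.743). The 21 intronic cytosines had a mean of 90.7% and 7 in a coding exon 70.7%. One intronic cytosine at +4302 (position 46865565) had 97.1% ± 5.88 in the control group and 81.0% ± 9.75 in the arsenic group (SD, n = 4). The difference of −16.1 points had a q of 0.0413 at 13 to 24 reads, and the groups overlapped.

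Tex101, a germ cell surface glycoprotein needed for sperm to pass into the oviduct, was methylated on both sides of its start site. Its promoter (chr7:24671950-24673050, minus strand) was at 87.9, 78.2, 84.4 and 92.7% in control samples 1 to 4 and at 88.6, 85.4, 82.1 and 85.8% in arsenic samples 1 to 4. The control samples spread more widely than the arsenic samples, and the means of 85.8% ± 6.13 and 85.5% ± 2.70 (SD, n = 4) differed by −0.320 points (exact permutation p = 0.971). The body (chr7:24668012-24671949), read at 12 intronic cytosines within the first 677 bases, had 74.9% ± 3.71 and 73.7% ± 3.59 (SD, n = 4), and differed by −1.13 points (exact permutation p = 0.686).

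At +14 in the 5′UTR of Tex101 (position 24672036) the groups did not overlap. The level was 79.4, 68.8, 70 and 61.1% in control samples 1 to 4 and 84.6, 92.3, 88.2 and 91.2% in arsenic samples 1 to 4. The difference of 19.3 points had a q of 0.0445 and a limma q of 0.972, so it was not a DMC, at 16 to 34 reads. The other strand of the same CpG differed by 8.08 points. Both strands summed differed by 11.8 points in summed reads, with a q of 0.0940. A cytosine at −154 differed the other way without overlap, with 96.3% ± 2.92 for control and 87.7% ± 5.64 for arsenic (SD, n = 4; q = 0.192).

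Dpep3 encodes a membrane dipeptidase of testicular cells that binds TEX101. Its promoter (chr8:105979319-105980419, minus strand), with 3 cytosines from −999 to −504, was at 88.7, 91.3, 94.2 and 82.0% in control samples 1 to 4 and at 92.8, 94.0, 91.3 and 94.5% in arsenic samples 1 to 4. The difference of 4.09 points came mainly with control sample 4 (exact permutation p = 0.171), and was 1.75 points without it. In the window from 500 b before to 500 b after the start it is read at the 4 cytosines of the exon described next and differed by 13.8 points. The body (chr8:105973520-105979318) was read at 4 cytosines from +220 to +280 of the first exon. Here the level was 69.2, 91.3, 78.9 and 90.5% in control samples 1 to 4 and 89.0, 96.2, 100 and 100% in arsenic samples 1 to 4. Arsenic sample 1 lay below control samples 2 and 4, and the other arsenic samples above all control samples. The means of 82.5% ± 10.5 and 96.3% ± 5.18 (SD, n = 4) differed by 13.8 points, the largest difference of the gene bodies (exact permutation p = 0.0857, limma adjusted p = 0.851, unadjusted 0.0183). These cytosines had 13 to 48 reads, and both read numbers were even in 84.4% of their values. At +253 (position 105979166) the difference was 15.99 points, or 13.0 points in summed reads, with a q of 0.0162. There all counts were even, and with all counts halved the q was 0.710.

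Acrv1, which encodes an acrosomal vesicle protein, and Prm2, which encodes the precursor of protamine 2, had no cytosine in the table. Their promoter windows hold 1 and 8 CpGs in the reference, and their bodies 45 and 21.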

How the data were processed

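RRBS data of 4 control and 4 arsenic samples were used. Reads had been trimmed by the authors (Trim Galore 0.6.5), aligned to mm10 (Bismark 0.22.3) and joined over samples with the strands kept separate (methylKit 1.22.0), with versions as in the submitters' processing notes. The authors deposited, per cytosine and sample, counts of all reads, of reads with C and of reads with T, without normalization and with at least 10 reads in every sample. In each cytosine the coverage equalled the sum of both counts (0 exceptions). Samples were grouped by their labels. No reads were realigned.

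From the counts, 2130064 cytosines on chromosomes 1 to 19, X and Y were used. Gene spans and start sites are those of curated RefSeq transcripts on GRCm38. DMCs were called over the whole table by a likelihood-ratio test between the 2 groups, equal to logistic regression on group, with Benjamini-Hochberg q. Regional levels were compared by two-sided exact permutation tests over 70 assignments, and log2((methylated + 1)/(unmethylated + 1)) of summed reads by limma 3.58.1 (R 4.3.3), each adjusted over all promoters or all gene bodies with at least 3 cytosines. Tables were handled in Python 3.11.15 with numpy 2.4.6, scipy 1.17.1 and pandas 2.3.3, plots drawn with matplotlib 3.10.9, and the tests checked on simulated data. The permutation tests and limma measure the spread between these pools, whereas the likelihood-ratio test on summed reads does not. Intervals and limits cover counting error only, since the counts used hold no molecular identifiers.

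The members and gene lists were chosen with earlier results of these data known. Named were all 10 genes, every DMC, in each gene the cytosine with the largest difference of group means, and of the late list the genes called by limma or else the 3 highest and 3 lowest promoters. Cytosines whose groups did not overlap, and the neighbours of named cytosines, were named after their values were seen, as were single genes of the other lists. Alternatives were coverage of at least 20 or 30 reads, overdispersion scaling, limma on cytosines, a replicate block, both strands summed, weighted means, at least 5 cytosines, a promoter from 500 b before to 500 b after the start, a pseudocount of 0.5, percent levels in limma, and leaving out each sample. Halving all counts was added after the data were seen.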

Additional observations from a re-analysis of the deposited data

Results flagged for a closer look

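In the promoters and gene bodies of the genes, 26 groups of 4 samples were examined for a sample that stands apart from its group, and 2 held one, where chance gives about 1.3. In the Tnp1 promoter, arsenic sample 2 had a level of 90.5%, while the other arsenic samples were between 81.9 and 82.9%. Without it the arsenic group differed from control by −6.11 points. In the Brdt promoter, control sample 3 had a level of 72.5%, while the other control samples were between 79.9 and 81.3%. Without it the difference was 6.58 points.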

How the results depend on the processing

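The number of DMCs in the 10 genes was 1 with coverage of at least 20 or 30 reads, and 0 with overdispersion scaling, with limma, with both strands summed and with all counts halved. It ranged from 1 to 4 with 1 sample left out. It was 4 without control sample 1, 3 without control sample 4, arsenic sample 1 or arsenic sample 4, and 2 without control sample 3 or arsenic sample 2. The Brdt cytosine stayed a DMC in each of these, at 13.0 to 15.9 points in summed reads, in which all cytosine values here are given. The Dpep3 cytosine at 105979166 became one without control sample 4 (18.2 points, q = 0.00627) or arsenic sample 1 (14.8 points, q = 0.00230), and the Ldhc cytosine at 46865565 without control sample 4 (−19.2 points, q = 0.00710). Of 6 promoters, 1 (without control sample 4) to 4 (without control sample 2) were lower in the arsenic group, and 3 of 3 with coverage of at least 20 reads, 3 of 6 with weighted means or both strands summed, and 3 of 7 in the window from 500 b before to 500 b after the start. In that window Brdt differed by 1.92 and Dpep3 by 13.8 points. Of 7 bodies, 2 (without control sample 4) to 4 were, and 2 of 6 with both strands summed. The causes were not tested. Limma called 0 promoters and 0 bodies of the genes under every alternative run, with lowest adjusted p between 0.862 and 0.983 for promoters and between 0.764 and 0.995 for bodies.

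Small differences turned. The Slc25a31 promoter differed by −0.0763 points with coverage of at least 20 reads, by −0.351 with weighted means and by −0.0457 with both strands summed. The Tnp2 promoter differed by −0.370 points in the same window, and the Ldhc body by 0.241, 0.395 and 0.0261 points with the same 3 changes as Slc25a31. With 1 sample left out, the difference ranged from −0.302 to 2.26 points in the Slc25a31 promoter, −2.86 to 1.99 in the Tex101 promoter, −0.449 to 3.41 in the Tnp2 promoter, −0.661 to 0.157 in the Ldhc body, −0.182 to 0.696 in the Brdt body, −2.86 to 1.03 in the Slc25a31 body, −2.50 to 0.436 in the Tex101 body and −1.29 to 13.1 at the Tnp2 cytosine at 10788616. The Prm1 cytosine at 10796686 ranged from 0.581 (without arsenic sample 1) to 21.2 points, the Tnp1 body from −4.91 to −0.667, and the Tnp1 cytosine at 73015858 from −15.8 to −6.34.

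Samples of the 2 groups that share a number did not deviate together (correlations of −0.0185, 0.0115, 6.75e-05 and 0.0142). With the replicate number as a block, the count of DMCs was 1, that of lower promoters 2 and that of lower bodies 4, and the block changed no call. At 11 to 55 reads per cytosine, as in Tnp2, Prm1 and Dpep3, a single level has a wide counting interval.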

Other observations

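The stretch of chromosome 16 that holds Tnp2, Prm3, Prm2 and Prm1 was read at 33 cytosines from 2 kb beyond the end of Tnp2 to 2 kb before the start of Prm1 (10785935 to 10798823). The 14 cytosines beyond the end of Tnp2 were nearly unmethylated, with a mean of 1.55% and single values from 0 to 5.94%. The level was 40.5 and 52.0% in the coding exon of Tnp2, at most 84.5% in its promoter, and 19.9 to 28.1% at the 10 cytosines of Prm1. Prm2 and Prm3 held 0 cytosines. This stretch was chosen after the levels of Tnp2 and Prm1 were seen.

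Both strands were read at 60 CpGs of the genes. Their levels differed by a median of 3.13 points and by at most 16.1 points. The difference between the groups had the same sign on both strands at 25 of the 60 and opposite signs at 35. Among the other late genes, the groups did not overlap in the promoters of Tekt2, a protein of the flagellar axoneme (7.14% ± 1.196 and 13.0% ± 1.85, SD, n = 4), and Ccna1, the cyclin of male meiosis (3.41% ± 2.41 and 1.48% ± 0.654, SD, n = 4). Each had an exact permutation p of 0.0286, the smallest possible, or 0.964 after adjustment over all promoters, and limma gave adjusted p of 0.883 and 0.919. These are 2 of 17 promoters, beside 2.97% of all promoters. Both means of Ccna1 were low, beside a median of 1.80% over all promoters. The part of incomplete bisulfite conversion in such low levels was not tested. Of 53 bodies of the list the groups did not overlap in 2, beside 3.9% of all bodies, namely Spag6 (39.5% ± 1.18 and 36.6% ± 0.382, SD, n = 4) and Dpy19l2, needed for the acrosome (78.4% ± 0.789 and 80.1% ± 0.653, SD, n = 4).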
